A study of Homo sapiens with 6 samples.

Results

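The 38 genes described here encode the machinery that makes ribosomes: RNA polymerase I and its regulators, the abundant nucleolar phosphoproteins, the proteins of the box C/D and U3 small nucleolar ribonucleoproteins (snoRNPs), and the assembly factors of the small and the large ribosomal subunit. They were chosen by symbol from a table of 60675 Ensembl genes. All 38 were found, and all 38 were among the 16503 genes with enough counts to be tested. By role they divide into 7 genes of the polymerase and its regulators, 4 nucleolar phosphoproteins and chaperones, 4 snoRNP proteins, 9 factors of small subunit processing and 14 factors of large subunit assembly. The figures label the first of these groups as Pol I and its activators, although it includes MYBBP1A, known to restrain the polymerase.

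The data are RNA sequencing of HCT116, an established human colorectal carcinoma line, in 3 groups of 2 libraries. Untreated cells carry the control labels, SP2509 cells received the compound SP2509 at 3 uM for 48 h, and siPIR cells are those with a small interfering RNA against PIR, the gene of the nuclear iron protein Pirin, at a time after transfection that the labels do not give. SP2509 inhibits LSD1 (KDM1A), a histone demethylase. The siPIR titles name only the knockdown, but SP2509 stands in the treatment label of these samples, so it is unknown whether they received the compound. A solvent (DMSO) arm is named in the treatment protocol, without saying if it is the untreated group. No library with a non-targeting small interfering RNA was analysed, so the effect of transfection and that of the loss of PIR cannot be told apart. Nothing says that the 2 libraries of a group are separate cultures, so p-values measure the spread between these libraries only, and that spread may be technical.

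Ribosome production starts in the nucleolus, where RNA polymerase I, recruited by the selectivity factor and UBTF, transcribes the ribosomal DNA into 1 long precursor RNA. Box C/D snoRNPs methylate and fold the precursor, the U3 snoRNP and the small subunit processome cut out the small subunit RNA, and other factors mature the large subunit around the remaining RNA. The pathway consumes much of a growing cell's energy, is driven by the transcription factor MYC, and is raised in many tumours. When it fails, free 5S RNP (the ribosomal proteins RPL5 and RPL11 with 5S RNA) binds the ubiquitin ligase MDM2.

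Total counts ran from 22622441 to 28816590 per library, and replicates correlated at 0.991 to 0.996 across the tested genes. PIR had 519 and 462 counts in untreated cells, 377 and 305 with SP2509, and 37 and 39 in the siPIR libraries, which fits the knockdown label (log2 fold change -2.87, edgeR adjusted p = 3.39e-09). Mitochondrial ribosomal RNA made up 6.33 and 6.93% of counts with SP2509, against 1.63 and 1.6% in untreated cells. The siPIR libraries had a count-weighted mean GC content of 42.3 and 42.8%, and the other 4 one of 48.3 to 48.7%. Summed levels of 8 epithelial markers were 4835 and 4864 CPM (counts scaled to the library total) in untreated cells, 4757 and 4762 with SP2509, and 1081 and 1169 in siPIR cells. By the test explained further on, SP2509 had 5 of the 8 higher and 1 lower, with a lowest log2 fold change of -3.07. The siPIR cells had 2 higher and 6 lower, with a median of -2.31. With an offset for GC content and transcript length these were 3 and 4, with a median of -0.29. Markers of other cell types were low: 7 fibroblast markers summed to 28.6 and 32.6 CPM in untreated cells, 21.5 and 19.8 with SP2509 and 1.41 and 1.81 in siPIR cells, 7 leukocyte markers to at most 9.1 CPM and 5 endothelial markers to at most 2.29 CPM in any library. COL1A2, PTPRC, CD3E and CLDN5 were at 0 counts throughout, and the other markers' part in the results was not tested.

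Several of the genes carry the letters CACGTG at their start. This palindrome, the canonical E-box that MYC and its partner MAX bind, was searched between 250 bases before and 50 bases after the annotated start (RefSeq, GRCh38.p14). Of the 38 genes, 29 had such a window and 13 of those held the motif (44.8%), against 2396 of all 27305 gene windows (8.77%). A match of letters is a description of the sequence and not evidence of binding. The sequences below, with the motif in capitals and the gene's own strand read 5′ to 3′, belong to the 5 genes with a motif that rose most with SP2509 and to the 3 with a motif that fell.
GNL2 (chr1:37595917-37595946, minus strand): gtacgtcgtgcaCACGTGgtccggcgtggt
WDR43 (chr2:28894658-28894687, plus strand): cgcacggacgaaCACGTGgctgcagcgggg
DDX21 (chr10:68956604-68956633, plus strand): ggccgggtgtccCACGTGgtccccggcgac
NOP2 (chr12:6568242-6568268, minus strand): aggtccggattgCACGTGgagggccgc
NOP14 (chr4:2963374-2963403, minus strand): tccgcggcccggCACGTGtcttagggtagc
MYBBP1A (chr17:4555340-4555369, minus strand): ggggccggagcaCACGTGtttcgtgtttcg
UTP20 (chr12:101280083-101280112, plus strand): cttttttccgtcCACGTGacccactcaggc
PES1 (chr22:30591880-30591909, minus strand): tccttggcagggCACGTGcgggaggaagtg
Genes of both directions thus share the same 6 letters. By the SP2509 call explained further on, the motif was in 8 of the 14 windows of genes that rose, 3 of the 8 of genes that fell and 2 of the 7 of genes not called.

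In untreated cells the genes were abundant. On a scale per transcript length (TPM, counts divided by transcript length and scaled to the library), their median was 65.9 against 14.2 for all tested genes, and 36 of the 38 lay above that value. NPM1, the histone chaperone and most abundant nucleolar phosphoprotein, had the highest level at 2170 and 2279 TPM. NCL (nucleolin) followed at 802 and 817 TPM, and FBL (fibrillarin, the methyltransferase of the box C/D snoRNP) at 495 and 521 TPM. These 3 levels did not overlap each other or the next, NOLC1, at 261 and 262 TPM, an assembly chaperone of snoRNPs.

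Below them, neighbours in the order often overlapped. NOP56 (163 and 173 TPM) and NOP58 (158 and 170 TPM), which pair in the core of the box C/D snoRNP, overlapped. NOC2L and PES1, of different complexes, came next, at 149 and 151 and at 144 and 150 TPM, also with overlapping libraries. On this scale the catalytic subunits of the polymerase lay far lower. The second largest subunit, POLR1B, had 42.7 and 43.6 TPM, and the largest, POLR1A, 30.4 and 28.9 TPM. TPM depends on the longest annotated transcript, of 12749 bases for POLR1A and 5059 for POLR1B. Without division by length POLR1A was the higher of the 2, at 122 and 115 against 67.7 and 68.6 TMM-scaled CPM. PPAN and UTP20 were the lowest of the 38, at 14.8 and 13.4 and at 14 and 13.9 TPM, and did not differ beyond their spread.

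**Figure D1:**
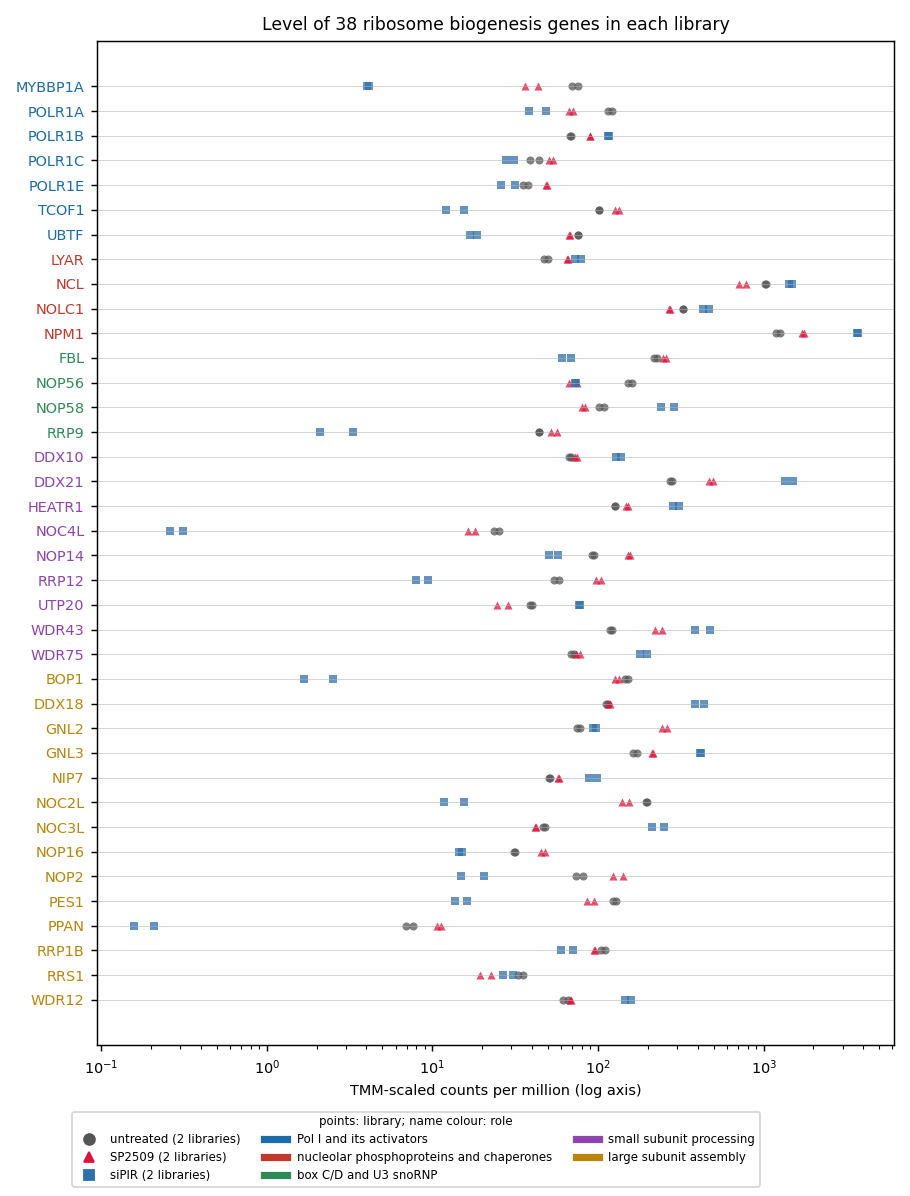
TMM-scaled CPM (log axis) of the 38 genes, 1 point per library and grouped by role; grey circles are untreated, red triangles SP2509 and blue squares siPIR. Untreated and SP2509 points lie close together for most genes, while siPIR points spread to both sides, down to NOC4L at 0.26 and 0.313 and PPAN at 0.157 and 0.208.

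SP2509 moved the 38 genes in both directions and mostly by less than 2-fold. With SP2509 17 of them rose, 11 fell and 10 were not called (edgeR quasi-likelihood test, adjusted p under 0.05 over all tested genes), on a background of 33.5% of all tested genes higher and 35.1% lower. Their median log2 fold change was 0.15, against -0.04 for all tested genes, and 23 of the 38 lay above that median. Changes beyond 2-fold were found for 1 gene in each direction, GNL2 upward and NOP56 downward, against a background of 12.9 and 17.9% of all genes. Fewer cells of a kind and less RNA per cell cannot be told apart in bulk RNA. The following levels are CPM after TMM scaling (the trimmed mean of M values), with mean ± SD over 2 libraries where a mean is given.

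Within the polymerase, the subunits went separate ways. POLR1A (ENSG00000068654, chr2:86020216-86106155), the catalytic subunit, had 122 and 115 CPM in untreated cells and 66.5 and 70.6 with SP2509. It fell by 0.79 ± 0.113 (SE) on the log2 scale, with an edgeR adjusted p of 4.77e-05. The groups did not overlap.

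The other 3 polymerase subunits among the 38 rose by small amounts. POLR1B, which completes the active site, went from 68.1 ± 0.683 to 89.6 ± 0.318 CPM (n = 2 each; log2 fold change 0.39, edgeR adjusted p = 0.00196). POLR1C, shared with RNA polymerase III, rose by 0.33 on the log2 scale, and POLR1E by 0.41. Without 1 library the call of POLR1C was lost (first untreated or first SP2509 library, edgeR adjusted p = 0.156 and 0.0992), and that of POLR1E (second untreated library, 0.0734). All 3 rises were lost when libraries were scaled by the upper quartile or by total counts alone, whereas the fall of POLR1A passed under each of the 4 scalings.

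Among the regulators, UBTF, the architectural factor that keeps ribosomal DNA open, had 75.4 and 76.1 CPM in untreated cells and 67.2 and 68 with SP2509. The difference of -0.16 ± 0.0939 (SE) on the log2 scale did not pass (edgeR adjusted p = 0.138), although the groups did not overlap. MYBBP1A, a nucleolar protein known to restrain the polymerase, fell from 76 and 70.1 to 36.4 and 43.3 CPM, by 0.87 on the log2 scale (edgeR adjusted p = 1.16e-05). TCOF1 (treacle), which couples UBTF to the polymerase, rose from 101 ± 1.05 to 130 ± 5.62 CPM (n = 2 each), and the call was lost under 2 of the 4 scalings and without either untreated library or the second SP2509 library (edgeR adjusted p = 0.0629, 0.0865 and 0.075).

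The 4 nucleolar phosphoproteins and chaperones divided evenly. NPM1 rose from 1195 and 1248 to 1743 and 1699 CPM (log2 fold change 0.49, edgeR adjusted p = 0.000527), and LYAR, a nucleolar zinc finger protein, rose by 0.43. NCL, which binds the precursor RNA as it is made, fell from 1013 and 1027 to 785 and 712 CPM, by 0.45 on the log2 scale (edgeR adjusted p = 0.00141). The 2 most abundant transcripts of the 38 therefore moved apart, with no overlap between groups for either.
NOLC1 fell by 0.25, and that call was lost when any untreated or SP2509 library was left out (edgeR adjusted p from 0.141 to 0.195). By total counts alone the rise of NPM1 did not pass, and the fall of NCL did.

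The 4 snoRNP proteins counted 1 higher, 2 lower and 1 not called, and the largest fall of the 38 genes was among them. NOP56 (ENSG00000101361, chr20:2652145-2658393), a scaffold protein of that particle, had 152 and 161 CPM in untreated cells and 74.5 and 67.1 with SP2509. It fell by 1.14 ± 0.0985 (SE) on the log2 scale, a ratio of 0.453 (edgeR adjusted p = 5.63e-07), and every SP2509 library was below every untreated one. Its partner NOP58 fell by less, 0.36, from 101 and 108 to 83.6 and 79.9 CPM, and lost its call without either SP2509 library or the second untreated library (edgeR adjusted p = 0.0568, 0.115 and 0.105).

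The enzyme of the particle did not follow. FBL had 217 and 227 CPM in untreated cells and 248 and 258 with SP2509, a log2 difference of 0.19 that did not pass (edgeR adjusted p = 0.104) but did with the offset for GC content and length (0.26, edgeR adjusted p = 0.00184) and with a block for the unexplained number in the sample descriptions. RRP9, the U3-specific protein, rose by 0.30, a call lost without any 1 of the 4 libraries compared (edgeR adjusted p from 0.0702 to 0.193).

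Factors of small subunit processing carried several of the larger rises. WDR43, an early-binding protein of the processome, had 118 and 121 CPM in untreated cells and 244 and 222 with SP2509 (log2 fold change 0.96 ± 0.115 SE, edgeR adjusted p = 9.6e-06). DDX21, an RNA helicase that also senses RNA polymerase I activity, went from 272 and 281 to 498 and 470 CPM (0.81, edgeR adjusted p = 1.37e-05). RRP12, which acts in export and late maturation of pre-ribosomes, went from 54.4 and 58.3 to 97.3 and 104 CPM (0.84, edgeR adjusted p = 9.79e-06).
In each of these the SP2509 libraries lay above both untreated ones. NOP14, a processome scaffold, rose from 92.1 and 95.2 to 152 and 155 CPM (0.71, edgeR adjusted p = 3.24e-05), and HEATR1, which links the processome to polymerase transcription, by 0.25, a call lost without any 1 of the 4 libraries compared (edgeR adjusted p from 0.092 to 0.162).

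UTP20, a large scaffold of the processome's late stage, moved the other way, from 39.7 and 39.1 to 28.5 and 24.7 CPM. It fell by 0.57 on the log2 scale (edgeR adjusted p = 0.000322). NOC4L, the partner of NOP14, fell from 25.4 and 23.7 to 18 and 16.4 CPM, by 0.51 (edgeR adjusted p = 0.000948), so that this pair of known partners went in opposite directions. WDR75 and DDX10, at 0.11 each, were not called (edgeR adjusted p = 0.318 and 0.332).

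The largest rise was in a large subunit factor. GNL2 (ENSG00000134697, chr1:37566816-37595935), a nucleolar GTPase of pre-60S export, had 74.4 and 77.8 CPM in untreated cells and 262 and 242 with SP2509. That is 3.31-fold, a log2 fold change of 1.73 ± 0.098 (SE) with an edgeR adjusted p of 1.9e-08. Its relative GNL3 (nucleostemin), from 163 and 171 to 214 and 212 CPM, rose by only 0.35, which was lost without the first untreated library (edgeR adjusted p = 0.07).

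NOP2, a ribosomal RNA methyltransferase, rose from 74.1 and 81.6 to 142 and 123 CPM (log2 fold change 0.77, edgeR adjusted p = 0.000165). NOP16 and PPAN, assembly factors of the pre-60S particle, each rose by 0.58. PPAN shares its locus with a read-through gene joined to P2RY11, so how its reads were assigned is uncertain. Both rises failed by total counts alone.

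A pair of complexes of this arm is represented by more than 1 protein, and in neither did all members pass the test in 1 direction. Of the PES1, BOP1 and WDR12 complex, PES1 fell from 124 and 129 to 94.4 and 85.3 CPM (by 0.49 on the log2 scale, edgeR adjusted p = 0.000973). BOP1 (-0.18) and WDR12 (0.10) were not called, at edgeR adjusted p = 0.139 and 0.389. Of the NOC2L and NOC3L pair, NOC2L fell by 0.43, a call lost without the first SP2509 library (edgeR adjusted p = 0.0782), and NOC3L (-0.18) was not called (edgeR adjusted p = 0.152).
RRS1, which brings the 5S RNP into the pre-60S particle, fell from 32.8 and 35.3 to 19.4 and 22.7 CPM, by 0.69 (edgeR adjusted p = 0.000157). NIP7 (0.19), RRP1B (-0.16) and DDX18 (0.04) were not called.

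**Figure D2:**
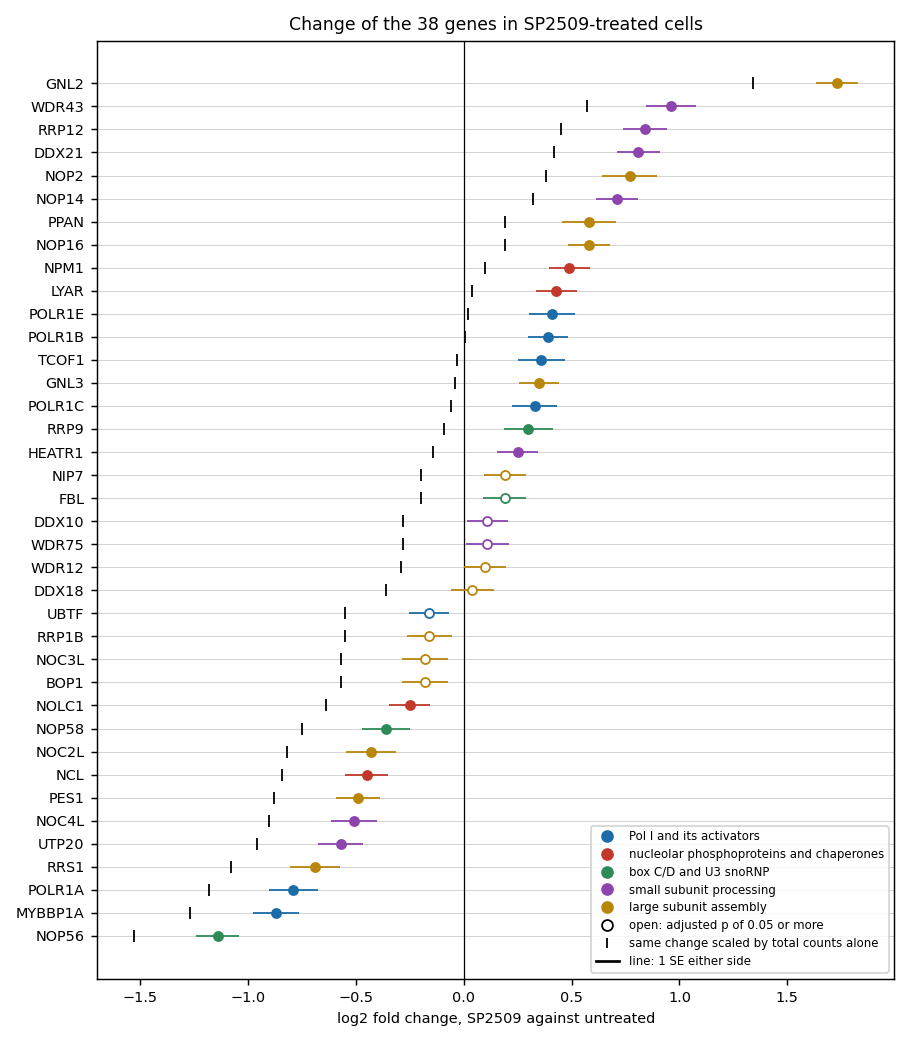
Log2 fold change of each of the 38 genes, SP2509 against untreated, as points with 1 SE either side, coloured by role; open points did not pass an adjusted p of 0.05, and ticks give the change under scaling by total counts alone. The points run from NOP56 at -1.14 to GNL2 at 1.73, and every tick lies to the left of its point.

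How many of the genes rose depended on the scaling. Under TMM 48.8% of all calls were higher, under upper-quartile scaling 36.2%, under total counts alone 28.3% and under DESeq2 size factors 49.9%. The median over all tested genes was -0.04, -0.27, -0.43 and -0.02 in the same order. The 38 genes went from 17 higher and 11 lower under TMM to 9 and 15 under upper-quartile scaling (background 25.5 and 44.8%) and to 6 and 19 by total counts alone (background 20.4 and 51.7%), while DESeq2 size factors gave 17 and 10 (background 34 and 34.1%).
Relative to the median of all genes, 23 of the 38 lay above it under each of the 4. Together they held 0.717 and 0.74% of all counts in untreated cells and 0.64 and 0.611% with SP2509, a lower share that moved with the larger share of mitochondrial ribosomal RNA. The part of that RNA in these calls was not tested.

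Under all 4 scalings 6 genes were higher (NOP14, WDR43, RRP12, DDX21, NOP2 and GNL2) and 10 lower (POLR1A, MYBBP1A, NCL, NOP56, NOP58, NOC4L, UTP20, PES1, RRS1 and NOC2L). Over every setting tried, including each library left out and an offset for GC content and length, the same 6 were higher and 6 were lower: POLR1A, MYBBP1A, NCL, NOP56, UTP20 and RRS1. The share of all tested genes that kept a call under all 4 scalings, or in every setting, was not counted. None of the 10 genes not called stayed so in every setting. UBTF, BOP1, RRP1B and NOC3L passed as lower under upper-quartile scaling and total counts alone, and WDR75, DDX10, WDR12 and DDX18 by total counts alone. FBL and NIP7 passed as higher with the offset, and FBL, NIP7 and BOP1 passed with the block for the description number.

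The rest of the pathway was followed through 142 further genes in 7 lists, of which 141 were tested. The counts that follow stand beside the background of 33.5% of all tested genes higher and 35.1% lower. Those by total counts alone stand beside 20.4% higher and 51.7% lower. Of 10 other Pol I factors, 6 rose and 2 fell with SP2509, or 5 and 4 by total counts alone. TAF1A, a subunit of the selectivity factor that places the polymerase on its promoter, went from 11.8 and 13.2 to 37.3 and 33.9 CPM (log2 fold change 1.51, edgeR adjusted p = 3.31e-07), and POLR1D, shared with RNA polymerase III, from 71.1 and 75.3 to 129 and 136 CPM (0.86, edgeR adjusted p = 4.85e-06). Of 22 RNA polymerase III genes, which include those for making 5S RNA, 9 rose and 4 fell, led by POLR3D (1.30), but by total counts alone 5 rose and 12 fell.

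Other small subunit factors counted 18 higher and 11 lower of 37, and other large subunit factors 16 and 7 of 34. RIOK1, a kinase of late small subunit maturation, rose from 36.1 ± 0.8 to 97.6 ± 3.67 CPM (n = 2 each; 1.44, edgeR adjusted p = 7.21e-08). RSL24D1, a pre-60S placeholder protein, rose from 136 ± 9.58 to 308 ± 0.914 CPM (n = 2 each; 1.18, edgeR adjusted p = 8.25e-07). By total counts alone these 2 lists counted 7 higher and 16 lower, and 12 and 17.

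Of 13 other snoRNP factors 4 rose and 6 fell, shares near the background, and by total counts alone none rose and 9 fell. RUVBL1 and PIH1D1, which belong to the R2TP complex that assembles box C/D snoRNPs, fell by 1.44 and by 1.46 on the log2 scale (edgeR adjusted p = 6.91e-08 and 8.99e-08). RUVBL1 went from 110 and 113 to 42.1 and 40.3 CPM. By total counts alone their changes were -1.83 and -1.85. The RNA exosome, which trims precursor ends, had 6 higher and 5 lower of 15, or 2 and 8 by total counts alone.

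CDKN1A, MDM2 and RPL11 were higher as well. Nucleolar stress was not measured, and the cause of these changes was not tested. CDKN1A (p21), an inhibitor of the cell cycle, went from 132 and 125 to 342 and 426 CPM (log2 fold change 1.58, edgeR adjusted p = 4.89e-07). MDM2, the ligase that the free particle binds, went from 127 in both to 220 and 228 CPM (0.82, edgeR adjusted p = 1.49e-05).
RPL11, one of the ribosomal proteins of the particle, had 578 and 597 CPM in untreated cells and 1016 and 1034 with SP2509. For these 3 genes the SP2509 libraries lay above both untreated ones, whereas those of RRS1 lay below. The share of all tested genes without overlap between the groups was not counted.

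MYC, the transcription factor that drives much of this pathway, rose from 229 and 216 to 458 and 464 CPM (1.05, edgeR adjusted p = 8.23e-07). MXD1, which competes with MYC for MAX, rose from 7 and 7.15 to 76 and 77.2 CPM (3.44, edgeR adjusted p = 1.84e-10). Of the 10 tested genes of the MYC network, 5 rose and 3 fell, and by total counts alone 2 rose and 5 fell. MYC and MXD1 still had positive changes on that scale, at 0.66 and 3.05.

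**Figure D3:**
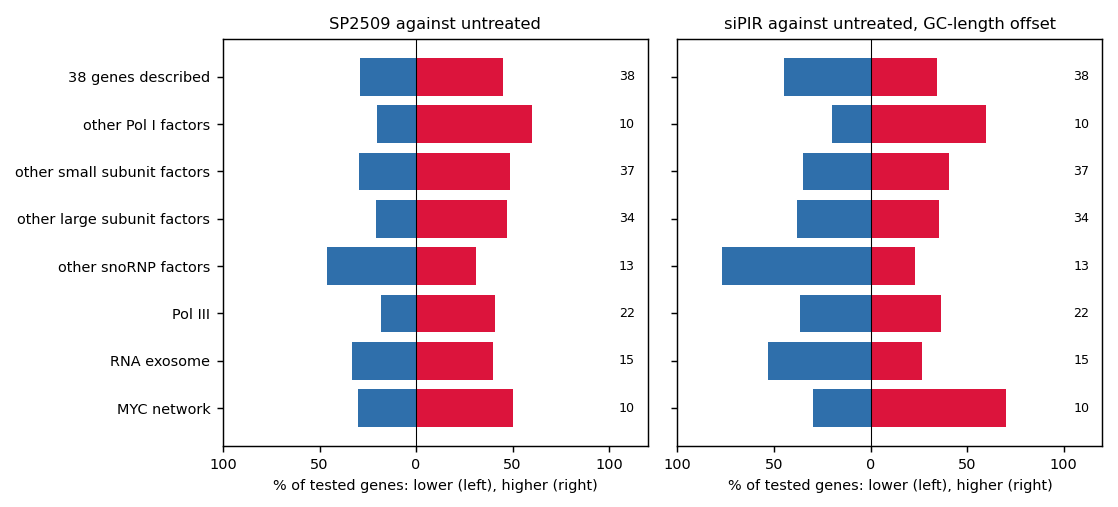
Percent of tested genes called higher (red, right) and lower (blue, left) in the 38 genes and in each of the 7 further lists, for SP2509 against untreated and for siPIR against untreated with the GC and length offset; the number at the right of each row is the number of genes tested. With SP2509 the other snoRNP factors have 6 of 13 lower, and the MYC network has 5 of 10 higher.

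The siPIR libraries share their untreated controls with the SP2509 comparison, and they differed from them far more widely. Of the 38 genes, 18 were called higher and 19 lower against untreated cells (edgeR, background 39.3 and 46.9% of all tested genes), with a median log2 fold change of -0.30 against -0.28 for all genes. The exception was RRS1 (-0.25, edgeR adjusted p = 0.0574). Changes beyond 2-fold numbered 10 upward and 15 downward (background 28.7 and 39.5%).

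These calls were ordered by base composition. Of the 19 genes with a transcript GC content under 50%, 18 were higher and 1, POLR1C, lower, and of the 19 at or above 50% none was higher and 18 were lower. Across the 38 genes, which are not independent of each other and were read in the same libraries, Spearman's rho between GC content and log2 fold change was -0.95, and across the 16345 tested genes with a GC value it was -0.88. With SP2509 the same values were -0.15 and -0.09. The genes at 40 to 45% GC had a median of 1.25, against 1.08 for all tested genes in that range, and those at 60 to 65% a median of -4.72, against -4.11.

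An offset that removes the trend with GC content and transcript length from each library was therefore fitted beside the plain test. With it 13 genes were higher and 17 lower (background 32.7 and 32.4%), with a median of -0.10 against -0.04 for all genes. Part of the trend remained, with a rho of -0.48 over the 38 genes and medians over all genes of -0.52 at 60 to 65% GC and -1.26 above 65%. With and without the offset 10 genes were higher in both and 13 lower in both, while 4 went from higher to lower (WDR75, DDX10, WDR12 and GNL2) and 2 from lower to higher (POLR1E and NOP16). The plain call of POLR1E was also lost without the first siPIR or the first untreated library (edgeR adjusted p = 0.0631 and 0.0936).
The offset would also take away any effect of the knockdown that follows GC content, and the part of base composition in the plain calls was not tested in any other way.

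**Figure D4:**
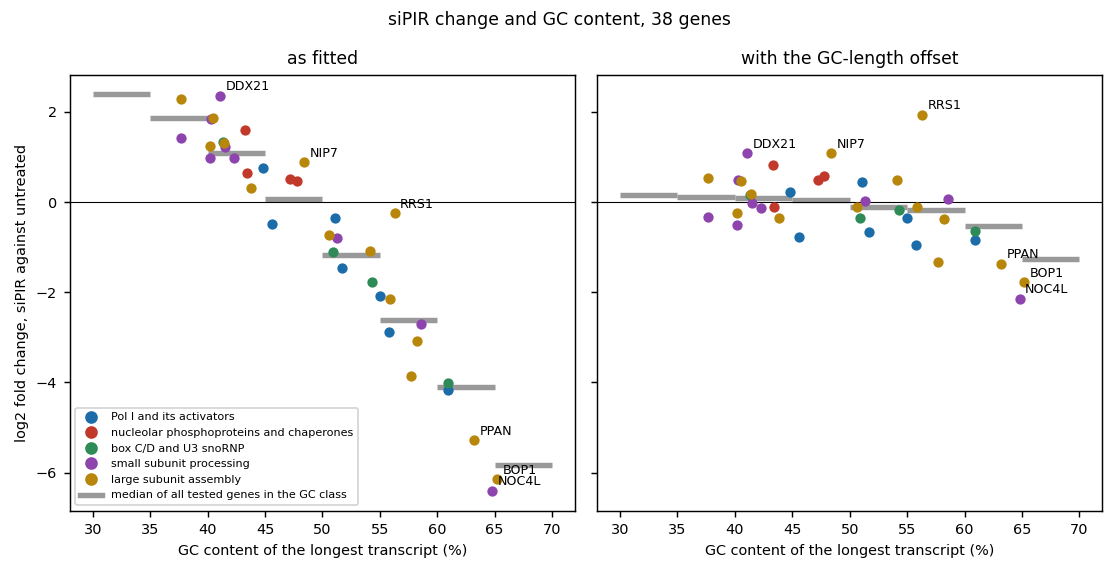
Log2 fold change, siPIR against untreated, against transcript GC content (%) for the 38 genes, without (left) and with (right) the GC and length offset; colours are roles and the grey line is the median of all tested genes in each GC class. The left panel falls from above 2 to below -6 as GC rises, along the grey line, and the right panel is flatter except at the highest GC.

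Over every setting, including an offset built on the median instead of the longest transcript, 6 genes were higher in siPIR cells. DDX21 had 272 and 281 CPM in untreated cells and 1495 and 1342 after siPIR, at 2.36 on the log2 scale, or 1.09 with the offset (edgeR adjusted p = 1.93e-10 and 1.62e-11). NPM1 went from 1195 and 1248 to 3723 and 3672 CPM (1.6, and 0.83 with the offset, but 0.26 with the median transcript). WDR43 went from 118 and 121 to 475 and 385 CPM (1.84, and 0.49 with the offset).
On the CPM scale, without the offset, the siPIR libraries of DDX21, NPM1 and WDR43 lay above both the untreated and the SP2509 ones. The median of all tested genes in their GC class was 1.08 against untreated cells. Against SP2509 with the offset, WDR43 was lower (-0.46, edgeR adjusted p = 8.42e-06). DDX21 and NPM1 were at 0.33 and 0.36 there, but at -0.08 and -0.11 with the median transcript. The others of the 6 were NOC3L, DDX18 and NIP7. The share of all tested genes that stayed higher in every setting was not counted. NOC3L went from 46.8 and 47.7 to 249 and 211 CPM (2.28, and 0.54 with the offset), and DDX18, a helicase of the large subunit, from 112 and 115 to 437 and 387 CPM (1.86, and 0.47). NIP7, named after its values were seen, gave 0.88, and 1.09 with the offset or 0.38 with the median transcript.

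Lower over every setting were 10 genes: POLR1A, POLR1C, UBTF, MYBBP1A, NOP56, RRP9, NOC4L, BOP1, PES1 and NOC2L. Of these, 4 belong to the polymerase and its regulators, among them MYBBP1A, which is known to restrain the polymerase. The share of all tested genes that stayed lower in every setting was not counted. POLR1A went from 122 and 115 to 38.3 and 48.3 CPM, at -1.45, or -0.67 with the offset (edgeR adjusted p = 6.08e-08 and 1.79e-07). UBTF went from 75.4 and 76.1 to 16.8 and 18.7 CPM, at -2.09, or -0.36 with the offset (edgeR adjusted p = 5.03e-10 and 0.000856).
MYBBP1A went from 76 and 70.1 to 4.02 and 4.17 CPM, at -4.16, or -0.83 with the offset. For all 3 the siPIR libraries were below both other groups, and the medians of all genes in the GC classes of POLR1A and UBTF (-1.18) and of MYBBP1A (-4.11) were also below 0. With the offset these class medians were -0.10 and -0.52.

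In the snoRNP core, NOP56 reached 73.3 and 72.3 CPM in siPIR cells, close to its 74.5 and 67.1 with SP2509, at -1.10 against untreated, or -0.36 with the offset. FBL went from 217 and 227 to 60.7 and 68.8 CPM, at -1.78. With the offset it gave -0.18 (edgeR adjusted p = 0.0366), and with the median transcript 0.27, so its direction depends on the transcript chosen. RRP9 went from 44.2 and 43.9 to 2.09 and 3.33 CPM, at -4.02, or -0.63 with the offset. It shares the GC class of MYBBP1A, in which the median of all genes was -4.11, or -0.52 with the offset.

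Genes of the highest GC content had very few counts in the siPIR libraries. NOC4L (64.8% GC) had 11 counts in the 2 siPIR libraries together against 1668 in the untreated, a scaled ratio of 1.17% with an exact 95% interval of 0.582 to 2.1% that covers counting error only. BOP1 (65.2% GC), the partner of PES1, went from 152 and 145 to 1.67 and 2.5 CPM, at -6.15, or -1.78 with the offset. PPAN (63.2% GC), named after its values were seen, had 7 counts against 495, or 2.51% (1 to 5.2%).
NOC2L went from 199 and 195 to 11.8 and 15.6 CPM (-3.85, or -1.32 with the offset), and PES1 from 124 and 129 to 13.7 and 16.3 CPM (-3.08, or -0.38). In the GC classes of NOC4L, BOP1 and PPAN the median of all genes was also below 0 with the offset (-0.52 and -1.26, given above). With the median transcript PES1 was at -0.79 and NOC2L at -1.04.

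RRS1, also named after its values were seen, was the gene that stood furthest from its GC class. It had 32.8 and 35.3 CPM in untreated cells and 30.5 and 26.8 in siPIR cells at 56.3% GC, a class in which the median of all genes was -2.61. Its change of -0.25 became 1.94 with the offset (edgeR adjusted p = 5.2e-11) and 1.62 with the median transcript. A coding gene on the same strand, AC009879.2, overlaps RRS1, so how its reads were assigned is uncertain. TCOF1 went from 102 and 101 to 12.1 and 15.5 CPM, at -2.88, or -0.94 with the offset and -0.16 with the median transcript.

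NCL went from 1013 and 1027 to 1494 and 1417 CPM (0.51, and 0.50 with the offset, edgeR adjusted p = 0.000293 and 7.81e-06). With the median transcript it was at 0.22, and by total counts alone at -0.11. WDR75 went from 68.7 and 71.7 to 198 and 179 CPM, at 1.42, and its direction turned with the offset to -0.33 (edgeR adjusted p = 0.000348). GNL2, the gene that rose most with SP2509, stood at 93 and 96.7 CPM in siPIR cells. That is 0.32 without the offset, a call lost without either untreated library (edgeR adjusted p = 0.0984 and 0.0578), and -0.36 with it.

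**Figure D5:**
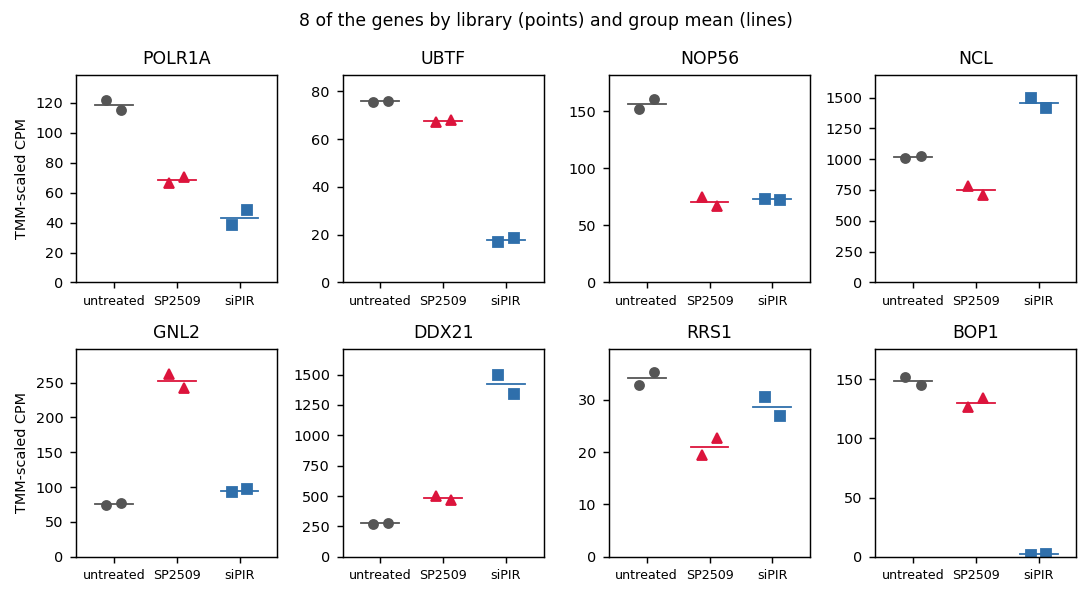
TMM-scaled CPM of 8 of the genes, 1 point per library and a line at each group's mean; each axis starts at 0. POLR1A and NOP56 are lower in both treated groups, GNL2 is high only in the SP2509 libraries (262 and 242), and BOP1 is close to 0 only in the siPIR libraries.

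In the further lists the siPIR comparison was read with the offset, under which 32.7% of all tested genes were higher and 32.4% lower. Of 10 other Pol I factors 6 were higher and 2 lower, among them TAF1D, a selectivity factor subunit, at 0.96 (98.4 and 114 CPM in untreated, 858 and 696 in siPIR cells). Of 13 other snoRNP factors 3 were higher and 10 lower, among them RUVBL2 at -1.31 and NHP2 at -0.83. Other small subunit factors counted 15 and 13 of 37, large subunit factors 12 and 13 of 34, RNA polymerase III 8 and 8 of 22, and the exosome 4 and 8 of 15.
Without the offset the balance differed, with 5 and 6 for the snoRNP factors, 8 and 7 for the exosome, 7 and 11 for RNA polymerase III and 20 and 12 for the small subunit factors. RPL11 was lower, from 578 and 597 to 364 and 416 CPM (-0.63 with the offset). MDM2, at 41.9% GC, had 127 CPM in both untreated libraries and 647 and 558 in siPIR cells, levels to which no offset was applied. Without the offset, the median log2 change of all tested genes at 40 to 45% GC was 1.08. CDKN1A had 81.3 and 103 CPM in siPIR cells, at -0.48, which turned to 2.17 with the offset. MYC had 228 and 216 CPM in siPIR cells, next to 229 and 216 in untreated cells, and was not called without the offset (edgeR adjusted p = 0.992). With it the log2 change was 1.51.

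Set directly against SP2509, the siPIR libraries had 18 of the 38 genes higher and 19 lower (edgeR, background 38.8 and 45.5%), and 11 and 20 with the offset (background 32.6 and 37%). GNL2 was lower in siPIR cells by this test, at -1.41, or -2.11 with the offset (edgeR adjusted p = 1.32e-08 and 3.61e-16). The largest rise was NOC3L, with 249 and 211 against 41.4 and 42 CPM, at 2.46, or 0.70 with the offset. DDX18 had 437 and 387 against 115 and 118 CPM (1.82, or 0.48), and WDR75 198 and 179 against 78.2 and 73.8 CPM (1.31, or -0.45). Without the offset, the medians of all genes in the GC classes of NOC3L and WDR75 and of DDX18 were 1.82 and 1.07. NOP58 was higher, with 289 and 239 CPM against 83.6 and 79.9, at 1.69, or 0.53 with the offset. UTP20 was also higher, with 77.9 and 77.1 against 28.5 and 24.7 CPM, at 1.54, or 0.49 with the offset. With the median transcript UTP20 was at 0.19, not past the threshold. RRP12 was lower, with 7.99 and 9.37 against 97.3 and 104 CPM, at -3.53, or -0.95 with the offset. The largest fall was BOP1, with 1.67 and 2.5 against 126 and 134 CPM (-5.96, or -1.91). RRP9 had 2.09 and 3.33 against 51.9 and 56.4 CPM (-4.32, or -1.12), and NOC2L 11.8 and 15.6 against 139 and 153 CPM (-3.41, or -1.05). NOC4L was at -5.88, or -1.89. With the offset, the medians of all genes in the GC classes of BOP1 and of RRP9 and NOC4L were -1.36 and -0.66.
For other genes the call was lost or turned with the offset. POLR1A gave -0.66, and 0.06 with the offset (edgeR adjusted p = 0.495), and MYBBP1A -3.28, and -0.15 (edgeR adjusted p = 0.323). The 7 genes LYAR, WDR43, WDR75, HEATR1, DDX10, WDR12 and GNL3 were called higher without the offset and lower with it. NOP56 did not pass without it (0.04, edgeR adjusted p = 0.715) and stood at 0.68 with it.

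The genes also share a feature of their loci. Of the 38, 6 hold annotated small nucleolar RNA genes inside them (NCL, NOP56, NOP58, WDR43, PPAN and GNL3), with 23 such genes in all. That is 15.8% of the 38, against 1.62% of the 13240 tested protein-coding genes. Most of the hosted RNAs had between 0 and a few counts in every library. SNORD11, inside NOP58, had 10 and 7 counts in untreated cells, 50 and 44 in siPIR cells and 3 and 1 with SP2509, in the same order as its host. SNORD69, inside GNL3, had 14 and 11, 9 and 2, and 0 and 5 counts in the same groups, while GNL3 was higher in both treated groups. Of the SNORD19 rows inside GNL3, the one with the most counts had 8 and 14, 69 and 56, and 7 and 12. That row was higher in siPIR cells, as GNL3 was, and its SP2509 and untreated libraries overlapped. These rows were chosen after their values were seen. A coding gene overlaps 14 of the 38 and a gene on the other strand 17, and since the strand setting of the counting was not given in the sources used here, those genes' reads may include some of their neighbours'. For NOP2, PPAN and RRS1 an overlapping coding gene is on the same strand, where strand cannot separate the reads.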

How the data were processed

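Estimated counts of 60675 genes were deposited in 1 table. Of the 38 genes described, 35 had a value that is not whole, and counts were rounded for the tests. FastQC 0.11.8, Trimmomatic 0.32, HISAT2, featureCounts, Subread 1.6.2, edgeR 3.26.4 and GRCh38 are named per the submitters' processing notes, and the directional kit per the labels' protocols. How counts became fractional, the strand setting and the annotation release were not given in the sources used here. All 6 libraries were filtered (filterByExpr), TMM-scaled and fitted with edgeR 4.0.16 (R 4.3.3, robust quasi-likelihood, 3 residual degrees of freedom), with Benjamini-Hochberg adjustment over 16503 genes and a threshold of 0.05. TPM, GC content and coordinates rest on the longest transcript in GENCODE 29. The offset uses natural splines of 5 degrees of freedom each for GC content and log length. Alternatives were 3 other scalings, DESeq2 1.42.0, no filter, only the 4 libraries compared, blocks for the replicate and description numbers, and each library left out; the offset without each library and with the median transcript was added after seeing the data. Values in every library are given for POLR1A, UBTF, NCL, NPM1 and FBL and for the 6 largest rises and 6 largest falls per comparison (average log2 CPM 3 or more), and up to 3 genes per further list plus MYC. An item of 1 further list, and that list's counts, are not reported here. The genes and lists were chosen with earlier results of these data known. Fits were checked on simulated data.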

Additional observations from a re-analysis of the deposited data

How the results depend on the processing

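The counts of the 38 genes called with SP2509 changed with the scaling: 17 higher became 9 under upper-quartile scaling and 6 by total counts alone, and 11 lower became 19 by total counts alone. Leaving out 1 library gave 12 to 19 higher and 8 to 14 lower. For siPIR against untreated it gave 17 to 18 higher and 18 to 19 lower, and with the offset 11 to 13 and 15 to 18, with 11 higher without untreated replicate 1. For siPIR against SP2509, 18 higher became 11 with the offset, 11 with the offset and the replicate block, and 8 with the offset on the median transcript; with the offset and 1 library left out it was 11 each time. For values that changed direction the cause was not tested.

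By total counts alone the SP2509 log2 changes of TCOF1 (-0.03), GNL3 (-0.04), POLR1C (-0.06), RRP9 (-0.09), HEATR1 (-0.14), NIP7 (-0.20), FBL (-0.20), DDX10 (-0.28), WDR75 (-0.28), WDR12 (-0.29) and DDX18 (-0.36) turned negative, and under upper-quartile scaling those of FBL (-0.04), NIP7 (-0.05), WDR75 (-0.12), DDX10 (-0.13), WDR12 (-0.14) and DDX18 (-0.20). With the offset DDX18 (-0.01) and BOP1 (0.13) changed sign, with or without the block. For siPIR against untreated, total counts alone turned NCL (-0.11), NOLC1 (-0.15) and GNL2 (-0.30). The offset turned HEATR1 (-0.03), LYAR (-0.10), UTP20 (-0.13), WDR12 (-0.24, or -0.23 with the block), WDR75 (-0.33), GNL2 (-0.36), DDX10 (-0.50), NOP14 (0.03), RRP12 (0.06), POLR1E (0.44), NOP16 (0.48) and RRS1 (1.94), at the same values with the block except where given, and for siPIR against SP2509 it turned POLR1A (0.06), RRP1B (0.01, or 0.00248 with the block), POLR1B (-0.15), GNL3 (-0.17), HEATR1 (-0.23), WDR12 (-0.28), WDR75 (-0.45), WDR43 (-0.46), LYAR (-0.49) and DDX10 (-0.55, or -0.56 with the block). There LYAR (-0.01) and NOP56 (-0.19) also turned by total counts alone, and NOP56 with no count filter (-0.06) and when 1 library was left out (from -0.04 to 0.09, the lowest without SP2509 replicate 2). With the median transcript in the offset the signs also differed from the plain fit for UBTF (0.04), BOP1 (0.06), WDR12 (-0.02) and DDX18 (-0.06) with SP2509, for NOP58 (-0.04), DDX10 (-0.09), HEATR1 (-0.12), WDR75 (-0.22), WDR12 (-0.30), UTP20 (-0.45), LYAR (-0.56), GNL2 (-0.80), FBL (0.27), NOP16 (0.53) and RRS1 (1.62) in siPIR against untreated cells, and for FBL (0.000604), DDX21 (-0.08), DDX10 (-0.09), NPM1 (-0.11), WDR75 (-0.23), WDR43 (-0.25), HEATR1 (-0.26), WDR12 (-0.28) and LYAR (-0.92) against SP2509.

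The replicate numbers did not pair the samples: deviations of libraries with the same number correlated at -0.04 to 0.08. With the replicate block the counts stayed at 17 and 11 for SP2509 and at 18 and 19 for siPIR against untreated, and all 38 genes kept their call in both. At 2 libraries a group the depth limits mainly NOC4L and PPAN in siPIR cells.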

Other observations

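The product of RNA polymerase I was only indirectly visible. The 8 rows named RNA5-8S5, for copies of the 5.8S ribosomal RNA, summed to 999 and 1143 counts in untreated cells, 2 and 6 in siPIR cells, and 417 and 1115 with SP2509. The SP2509 libraries thus differ from each other by more than the second differs from the untreated ones. Such RNA is mature, near-identical between copies and subject to whatever removal step the libraries went through, not given in the sources used here, so these counts do not measure the polymerase's activity. The share of counts held by the 38 genes was 0.858 and 0.867% in siPIR cells, above the untreated 0.717 and 0.74%. NPM1 had 71268 and 70520 counts in siPIR cells against 43188 and 39469 in untreated cells, and DDX21 28627 and 25775 against 9840 and 8886. By the plain test 18 of the 38 were called higher and 19 lower. The part of each gene in the higher share was not tested. The 38 genes together, NPM1 included, had 206352 and 196199 counts in siPIR cells and 206635 and 184706 in untreated cells. The higher share thus does not describe the genes as a set.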
